A study of Homo sapiens with 12 samples.

Results

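The cells were HepG2, an established human hepatoma line, carrying an empty CRISPR vector. Per the labels they are of WT genotype, were transfected by lipofection, and were put under blasticidin selection from 48 h afterwards. They were grown in low-glucose medium with serum. The 3 libraries whose column names hold HepG2_Empty were used, out of 12 libraries of 4 lines, and n = 3 wells (a, b and c) throughout. The wells are of 1 stable line, so a spread given here is between wells and not between independently made lines. Whether that line is a clone or a pool is not given in the labels. Levels are described as they stand, without a comparison with the lines that received ZHX3-directed vectors.

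Hepatocytes make most plasma proteins, handle sugars, fats, nitrogen and drugs, and are held in that state by a network of transcription factors that includes the HNF4, FOXA and CEBP families. Fetal hepatocytes make alpha-fetoprotein and use a partly different set of enzymes, which hepatomas often express again. Many liver enzymes have a sister gene used in other tissues, and both members of such pairs are given here.

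Wells held 50864744 counts in a, 58038298 in b and 65428204 in c. Levels are counts per 1000000 counts of the library (CPM), on scaled library sizes. A gene is called expressed when it had at least 1 CPM in every well, which corresponds to 51.1 counts in the shallowest. It is called at the floor when it had at most 3 counts in every well, a level of at most 0.0587 CPM in well a, and low in between. Of 26485 genes in the table, 12214 were expressed, 4888 were low and 9383 were at the floor, of which 6863 had 0 counts in all 3 wells. Among 19011 protein-coding genes 11393 were expressed, that is 59.9%, and this share is the background for the counts below. The median over all protein-coding genes was 7.21 CPM, or 1.93 CPM per kb of exon. All 40 genes of a list that every cell uses were expressed. As the opposite check, 0 of 373 olfactory receptor genes were expressed and 368 were at the floor, a family added after the values were seen. Means are given ± SD over the 3 wells. Levels of different genes are compared per kilobase (kb) of annotated exon, since a longer transcript gives more counts.

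The genes with the most counts were a mixture of liver secreted proteins and general cell machinery. Albumin (ALB), the main protein of plasma, was the highest with 18398, 17161 and 16925 CPM in wells a, b and c, a mean of 17494 ± 791 CPM. The elongation factor EEF1A1 followed with 16499, 16531 and 16545 CPM. Fibronectin (FN1), an extracellular matrix and plasma protein, had 14293, 14970 and 14611 CPM. Alpha-fetoprotein (AFP), the fetal relative of albumin, came next with 11479, 10618 and 10598 CPM. The 10 highest genes together held 10.32%, 10.29% and 10.4% of the counts of wells a, b and c. Counts were otherwise spread widely, since the 677, 663 and 659 highest genes held 50% of the counts. Per kb of exon the order began with ALB at 7717 CPM per kb, followed by the ferritin light chain FTL at 5492, the fetuin AHSG at 4812, AFP at 4388 and apolipoprotein A-II (APOA2) at 3767. The 20 highest by counts also held the protease inhibitors SERPINA1 and A2M, the lipoprotein APOB, transferrin (TF), complement C3, the insulin-like growth factor binding protein IGFBP1, the desaturase SCD and the amino acid transporter SLC38A2. ACTG1, EEF2, GAPDH, HSP90AB1 and ENO1, which serve structure, translation, glycolysis and protein folding, were among them as well. Protein-coding genes took 98.8% of all counts and long non-coding RNAs 0.561%. The long non-coding RNA with the most counts was LINC00657 at 629 ± 7.80 CPM, named after the values were seen.

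**Figure D1:**
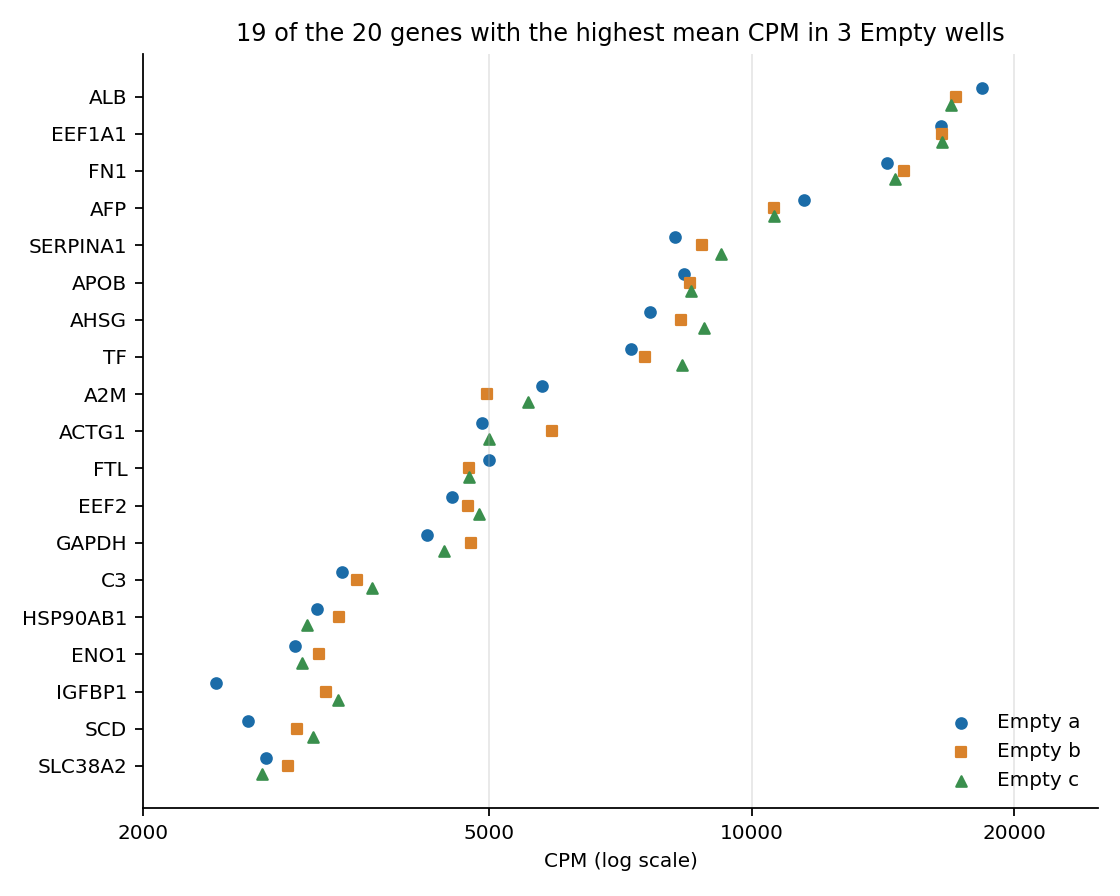
Levels of 19 of the 20 genes with the most counts, in CPM on a log axis, with a point for each of the 3 Empty wells. ALB lies at the top between 16925 and 18398 CPM, and the wells differ little beside the distances between most genes.

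ALB and AFP lie next to each other on chromosome 4, with afamin (AFM), a vitamin E binding relative, further along. In RefSeq on GRCh38.p14 their genes span chr4:73404287-73421482 for ALB, chr4:73436221-73456174 for AFP and chr4:73481745-73504001 for AFM, all on the plus strand. The promoters are shown because the 3 neighbours belong to 1 family and differ widely in level, with 1.04, 0.830 and 1.24 CPM for AFM. Each stretch runs from 250 bases before to 50 bases into the gene start, 5′ to 3′ on the plus strand. Capitals mark GTTAAT, a word known from promoters of liver genes, and TATAAA, the TATA box.
ALB: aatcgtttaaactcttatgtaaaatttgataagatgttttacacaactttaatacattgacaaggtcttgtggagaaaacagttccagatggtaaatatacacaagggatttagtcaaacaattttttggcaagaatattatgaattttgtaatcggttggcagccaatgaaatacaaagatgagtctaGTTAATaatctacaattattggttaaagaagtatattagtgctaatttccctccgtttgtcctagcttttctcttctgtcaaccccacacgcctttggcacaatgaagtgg
AFP: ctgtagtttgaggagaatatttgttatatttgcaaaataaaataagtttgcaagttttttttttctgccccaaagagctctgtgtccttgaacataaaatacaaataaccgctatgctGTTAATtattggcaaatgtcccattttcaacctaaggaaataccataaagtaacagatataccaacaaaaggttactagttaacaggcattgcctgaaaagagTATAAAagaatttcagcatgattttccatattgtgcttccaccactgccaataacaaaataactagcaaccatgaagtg
AFM: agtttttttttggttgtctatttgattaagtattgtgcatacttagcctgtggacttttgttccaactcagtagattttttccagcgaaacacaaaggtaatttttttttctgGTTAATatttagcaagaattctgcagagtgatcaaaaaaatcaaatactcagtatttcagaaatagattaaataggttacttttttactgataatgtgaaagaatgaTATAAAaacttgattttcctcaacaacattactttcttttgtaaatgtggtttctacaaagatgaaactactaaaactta
The stretches lie at chr4:73404037-73404336 for ALB, chr4:73435971-73436270 for AFP and chr4:73481495-73481794 for AFM. GTTAAT began 61 bases before the start in ALB, 132 in AFP and 137 in AFM. TATAAA began 29 bases before the start in AFP and 30 in AFM, and these letters were not found at the corresponding place in ALB. Both searched words were thus present in AFM, whose level was about as low as the threshold for an expressed gene. Over 35116 RefSeq promoters of this length, GTTAAT occurred on either strand in 6.88%, and over the 15207 promoters of protein-coding genes in the count table in 5.21%. It occurred in 25.9% of 27 promoters of the plasma protein list and in 27.8% of 18 of the coagulation list, in 13.3% of 15 of the complement list and in 21.4% of 14 of the apolipoprotein list. By level it was in 8.83% of promoters of protein-coding genes at the floor and in 3.51% of those at 10 to 100 CPM. These groups also differ in base composition. The median share of G and C bases was 50% for plasma proteins, 50.8% for coagulation, 50% for complement and 57.7% for apolipoproteins. It was 53.7% at the floor and 65.7% at 10 to 100 CPM, against 63% over protein-coding genes. The part of base composition in the shares of GTTAAT was not tested. TATAAA starting 40 to 20 bases before the start, on the gene's strand, occurred in 2.304% of all promoters and in 3.64% of those of protein-coding genes. By level in the Empty wells it was in 8.29% of promoters of protein-coding genes at the floor, in 0.873% of those at 10 to 100 CPM and in 13.5% of 74 at 1000 CPM or more. The share was thus higher at both ends of the range of levels than in its middle. The words do not overlap, and a match describes the letters and not a bound site.

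The liver secretory programme was largely present. Of 38 plasma protein genes 32 were expressed, with a median of 194 CPM, and they took 5.978%, 5.842% and 6.186% of the counts of wells a, b and c. Alpha-1-antitrypsin (SERPINA1), the inhibitor of neutrophil elastase, had 8161, 8761 and 9217 CPM. Fetuin-A (AHSG), a mineral-binding protein, had 7640, 8287 and 8818 CPM. Alpha-2-macroglobulin (A2M), a broad protease inhibitor, had 5745, 4965 and 5530 CPM. SERPINA1 and AHSG were each lowest in well a and highest in well c, A2M was lowest in b. APOH and AMBP, a phospholipid-binding protein and the precursor of bikunin, had 1373 and 1119 CPM per kb, against 1118 for A2M. The acute-phase genes CRP, SAA1 and SAA2, which liver makes under inflammatory signals, had 0 counts in every well. At these depths 0 counts allow up to 0.0459 to 0.0587 CPM per well, for counting error only. SAA1 and SAA2 are near-identical copies, so reads shared between them may not have been counted. The vitamin D binding protein GC was low with 0.215, 0.173 and 0.245 CPM, and HRG, a histidine-rich glycoprotein of plasma, with 0.137, 0.259 and 0.107 CPM.

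Coagulation genes were expressed in 18 of 20 cases and 0 were at the floor. Prothrombin (F2) led with 631, 633 and 644 CPM, which was 314 CPM per kb. The plasmin inhibitor SERPINF2 had 218 CPM per kb, heparin cofactor SERPIND1 167, the tissue factor pathway inhibitor TFPI 114 and protein C (PROC) 86.5. The 2 genes below the threshold were coagulation factor IX (F9) with 0.0783, 0 and 0.0306 CPM and plasma prekallikrein (KLKB1) with 0.509, 0.449 and 0.444 CPM. Of the complement list 17 of 22 genes were expressed and 4 had 0 counts in every well. The share at 0 counts was similar over all protein-coding genes, with 3154 of 19011. C3, where the complement pathways meet, had 3389, 3525 and 3665 CPM, and factor B (CFB) of the alternative pathway had 287, 300.4 and 339 CPM. C4A, C4B and C9 had 0 counts in every well. C4A and C4B are near-identical copies, and reads that fit both may have been dropped, so their 0 is uncertain. C9, the last component to join the membrane attack complex, shares no annotated exon with another gene.

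Among apolipoproteins and their partners 21 of 26 genes were expressed. APOA2, a protein of high-density lipoprotein, had 2093, 2095 and 2254 CPM. APOA1, the main protein of the same particle, had 1615, 1583 and 1600 CPM. APOB, the scaffold of very-low-density lipoprotein, had 8352, 8502 and 8510 CPM, and because its transcript is long this was 570.2 CPM per kb, against 1319 for APOE and 1123 for APOA1. APOC2, the activator of lipoprotein lipase, APOC4 and LPA, the protein of lipoprotein(a), had 0 counts in every well. APOC2 and APOC4 share 33.4% and 32.4% of their exon bases with a read-through gene, APOC4-APOC2, in GENCODE release 29, and that gene had 8, 9 and 15 counts. How the authors' annotation divides these exons is unknown, so the 0 of APOC2 and APOC4 is uncertain. APOD had 0, 0 and 1 counts.

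**Figure D2:**
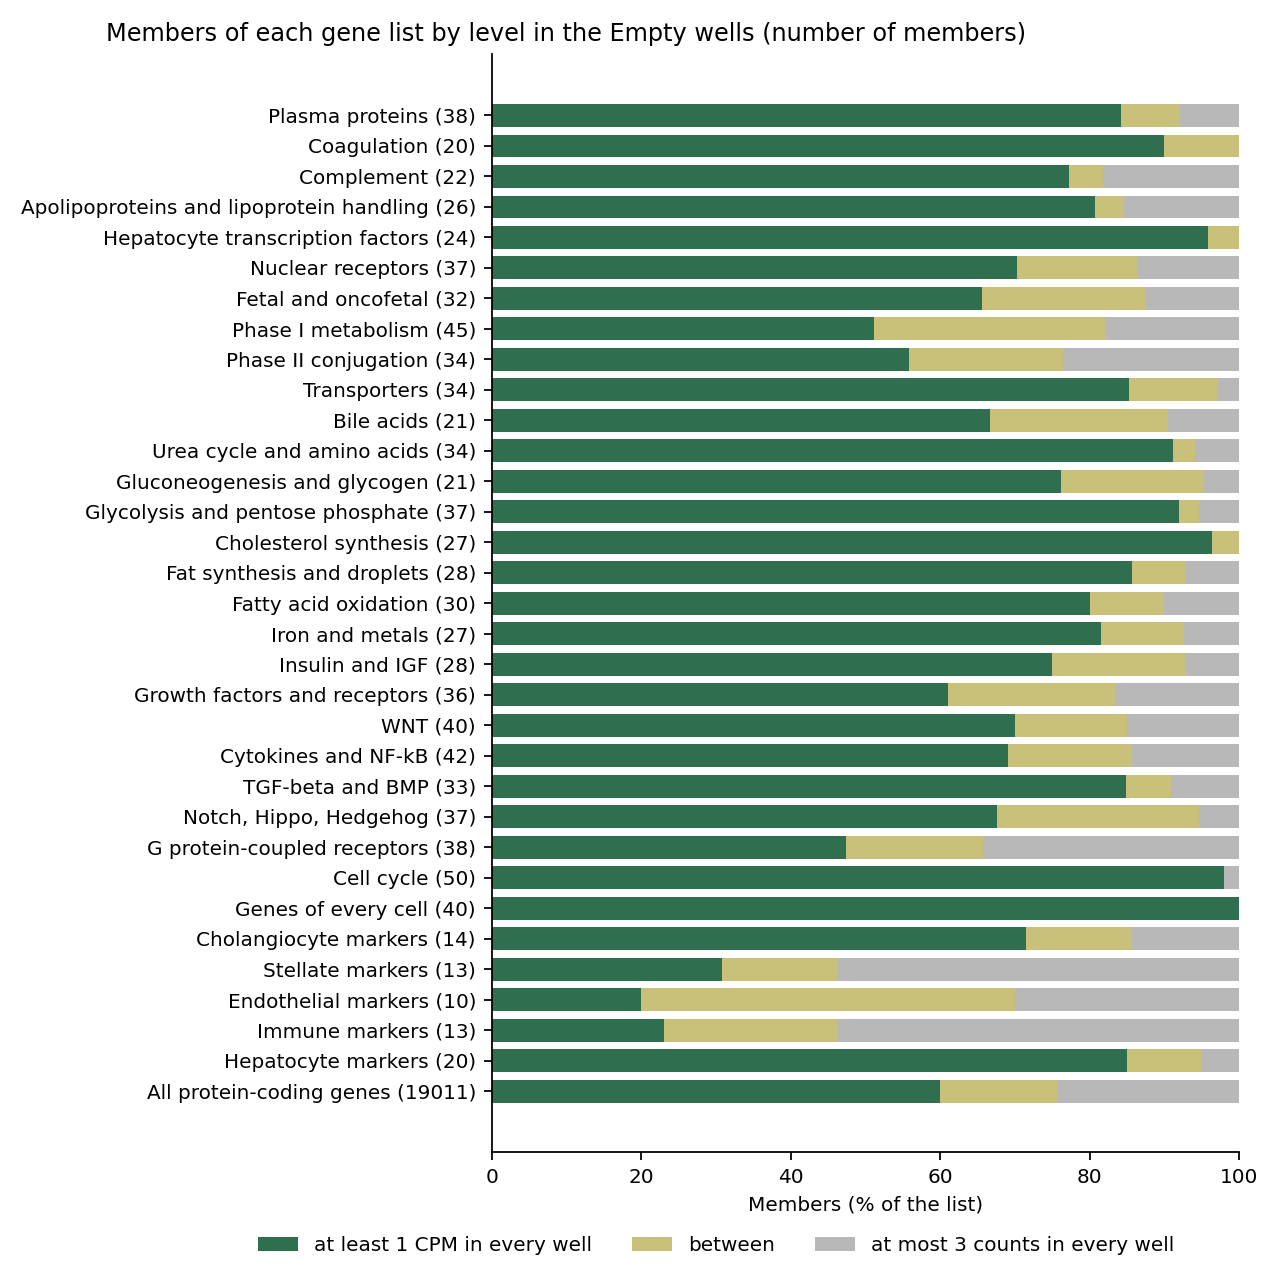
Share of the members of each list that were expressed (at least 1 CPM in every Empty well), low (between) or at the floor (at most 3 counts in every well), as stacked bars in percent, with the number of members in brackets and all 19011 protein-coding genes in the lowest row. Hepatocyte transcription factors and cholesterol synthesis have 1 member each below the expressed class, and the endothelial, immune and stellate markers have the smallest expressed shares.

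The transcription factors of the hepatocyte state were expressed in 23 of 24 cases. HNF4A, a nuclear receptor that activates many liver genes, had 314, 316 and 333 CPM. FOXA3, a forkhead factor, had 99.6, 101 and 105 CPM. The orphan receptor NR0B2 (SHP), which represses bile acid synthesis, was the highest per kb with 87.0 CPM per kb, followed by HLF at 51.8, FOXA3 at 51.2, the homeobox factor HHEX at 50.3 and HNF4A at 44.5. These levels were far below those of the secreted proteins. NR5A2, an activator of bile acid and cholesterol transport genes, was the exception with 1.31, 0.709 and 0.796 CPM. Of the 37 nuclear receptors 26 were expressed, led per kb by the shared partner RXRA with 58.6 CPM per kb and by NR2F6 with 55.7. Those at the floor included the steroid receptors ESR1 and PGR, and RXRG and ESRRG. The vitamin D receptor VDR was low with 0.333, 0.138 and 0.199 CPM and ESR2 with 0.196, 0.346 and 0.214 CPM.

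Fetal and hepatoma-associated genes were expressed in 21 of 32 cases, with very unequal levels. AFP averaged 10899 ± 503 CPM. Glypican-3 (GPC3), a fetal cell-surface proteoglycan, had 1779, 1763 and 1831 CPM. The imprinted gene PEG10 had 2769, 2860 and 2646 CPM. Keratin 19 (KRT19), a keratin of bile ducts and liver progenitors, had 418, 492 and 416 CPM, and the chromatin protein HMGA1 had 562, 600.4 and 569.9 CPM. These 5 genes were the highest of the list per kb, between 248 CPM per kb for HMGA1 and 4388 for AFP. The fetal globins HBG1 and HBG2, which are near-identical copies, had 0, 0 and 0 counts and 0, 0 and 0 counts, and embryonic HBZ had 0, 2 and 1 counts. H19, the imprinted neighbour of IGF2, had 2, 0 and 0 counts, while IGF2 had 461, 567 and 554 CPM. The stem cell factors SALL4 and LIN28A were low, with 0.274, 0.639 and 0.383 CPM and 0.0979, 0.0346 and 0.138 CPM. The list thus held genes with levels like those of secreted liver proteins beside genes near 0.

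Drug metabolism showed the lowest share of expressed genes of the liver and metabolic lists, with 23 of 45 phase I genes, against 59.9% of protein-coding genes. Values for the highest members per kb come first. Aldehyde dehydrogenase ALDH1A1 had 279, 244 and 248 CPM, and POR, which passes electrons to all microsomal P450 enzymes, had 298, 296 and 314 CPM. ADH5, the alcohol dehydrogenase of most tissues, had 259.6, 239 and 258 CPM. The carboxylesterases CES1 and CES2 completed the 5 highest per kb, with 52.1 and 36.2 CPM per kb. The major adult P450 enzymes were low or at the floor. CYP3A4, the main drug-oxidizing P450 of adult liver, had 6, 5 and 7 counts, and its fetal relative CYP3A7 had 35, 21 and 39 counts. CYP2E1, which oxidizes ethanol, had 0.0979, 0.0519 and 0.306 CPM. CYP1A2, CYP2C19, CYP2D6 and CYP4A11 were at the floor, with ADH1A, ADH1C and FMO1. Members of these P450 and ADH1 families are close relatives, and reads fitting several of them may not have been counted.

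Among conjugating enzymes 19 of 34 were expressed. SULT2A1, the sulfotransferase of steroids and bile acids, had 179, 180.3 and 176 CPM and was the highest per kb with 89.9 CPM per kb. GSTO1 and the membrane-bound MGST2 followed with 77.0 and 58.5. UGT2B10, a glucuronosyltransferase from a family of close copies, had 95.8, 88.9 and 91.7 CPM. At the floor were GSTP1 with 1, 1 and 0 counts, GSTM1 with 0, 0 and 0 counts, GSTT1 with 0, 0 and 0 counts and NNMT, the nicotinamide methyltransferase, with 0, 0 and 0 counts. For GSTT1 no exon length was found in the annotation used here. Whether reads could be assigned to it is unknown, so its 0 is uncertain. UGT1A3, UGT1A4, UGT1A6 and UGT1A9 were also at the floor, but they share from 57.6% to 62.5% of their exon bases with other UGT1A genes, so their counts cannot be read as absence of the shared exons. Transporters were expressed in 29 of 34 cases. The amino acid carrier SLC38A2 had 2771, 2934 and 2741 CPM, the glucose carriers SLC2A3 and SLC2A1 363 and 275 CPM per kb, and the large amino acid carrier SLC7A5 222. Among the members below the threshold, SLC10A1 (NTCP), which takes up bile acids, had 0.235, 0.0519 and 0.0612 CPM, SLCO1B1 0.0196, 0.0691 and 0.0612 CPM and SLCO1B3 0.803, 0.743 and 1.41 CPM. ABCB11, the bile salt export pump, had 0, 0 and 0 counts.

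Bile acid genes were expressed in 14 of 21 cases. FGFR4, the receptor through which gut FGF19 restrains bile acid synthesis, had 451, 424 and 432 CPM, and its co-receptor KLB had 140.4, 118 and 122 CPM. CYP27A1, which starts the acidic pathway, had 161, 158 and 161 CPM. CYP7A1, the rate-limiting enzyme of the classical pathway, was low with 0.352, 0.449 and 0.612 CPM. CYP7B1, which acts after CYP27A1, had 0.157, 0.104 and 0.122 CPM, and FGF19 had 0.157, 0.190 and 0.245 CPM. CYP46A1, the cholesterol hydroxylase of brain, was at the floor.

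Nitrogen metabolism was more complete, with 31 of 34 genes expressed. Glutamate dehydrogenase (GLUD1) had 719.6, 704 and 715 CPM and AHCY, which hydrolyses S-adenosylhomocysteine, had 497, 492 and 501 CPM. GPT2, GLUL and HPD followed per kb with 119, 94.1 and 92.7 CPM per kb; they are a mitochondrial alanine aminotransferase, glutamine synthetase and an enzyme of tyrosine breakdown. Within the urea cycle, CPS1, the entry enzyme, had 52.3, 51.8 and 47.0 CPM, and arginase ARG1, the last enzyme, had 5.27, 3.61 and 3.73 CPM. OTC, which joins carbamoyl phosphate to ornithine, was low with 0.157, 0.207 and 0.122 CPM. TDO2, the liver tryptophan dioxygenase, had 0 counts in every well, and serine dehydratase SDS had 0, 1 and 2 counts. The urea cycle thus had an entry and an exit enzyme above the threshold and 1 step, OTC, below it.

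Most genes of sugar breakdown were expressed. Of 37 genes of glycolysis and the pentose phosphate pathway 34 were expressed, with a median of 33.5 CPM per kb. GAPDH had 4238, 4762 and 4439 CPM, enolase ENO1 2987, 3185 and 3049 CPM, aldolase ALDOA 2610, 2865 and 2639 CPM and lactate dehydrogenase LDHA 2139, 2159 and 2060 CPM. These enzymes and PKM were the 5 highest of the list per kb, from 393 CPM per kb for PKM to 2014 for GAPDH. LDHB, the lactate dehydrogenase of heart, had 0 counts in every well, and the pyruvate dehydrogenase kinase PDK4 was low with 0.0587, 0.104 and 0.0612 CPM. Of 21 genes of gluconeogenesis and glycogen metabolism 16 were expressed, with a median of 9.00 CPM per kb. Mitochondrial PCK2 led with 393, 363 and 458 CPM, whereas cytosolic PCK1, the hormone-regulated form, had 10.0, 9.61 and 8.78 CPM. Liver glucose-6-phosphatase G6PC had 2.25, 2.33 and 2.06 CPM. Fructose-bisphosphatase FBP1 was low with 4, 20 and 14 counts, and liver glycogen synthase GYS2 was at the floor with 1, 2 and 0 counts. The glucagon receptor GCGR was low with 0.0979, 0.0346 and 0.0459 CPM.

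Cholesterol synthesis and uptake genes were expressed in 26 of 27 cases. DHCR7, a reductase at the end of the pathway, had 363, 413 and 419.8 CPM. Squalene epoxidase SQLE, which acts midway, had 348, 370.0 and 395 CPM. INSIG1, which retains the SREBP complex when sterols are plentiful, was the exception with 5, 0 and 0 counts. Its partner in that role INSIG2 had 236, 248 and 231 CPM. Fat synthesis and storage genes were expressed in 24 of 28 cases. Stearoyl-CoA desaturase (SCD) had 2639, 3004 and 3134 CPM, the lipid droplet coat PLIN2 788, 860.3 and 819 CPM and fatty acid synthase FASN 1776, 1954 and 1923 CPM. Malic enzyme ME1, which makes NADPH for lipid synthesis, had 0 counts in every well. CIDEB had 0, 1 and 0 counts, and all of its annotated exon bases are shared with another gene, so that value is uncertain. Fatty acid oxidation genes were expressed in 24 of 30 cases, led by the carrier FABP1 with 320.4, 369 and 418 CPM. Well a was the lowest of the 3 for FABP1. ACSL4, ACSL3 and ACADVL followed per kb with 132, 122 and 95.6 CPM per kb. The list's floor held ACADL, FABP4 and CYP4A11.

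Iron and metal genes were expressed in 22 of 27 cases. The ferritin chains FTL and FTH1 had 4990, 4737 and 4738 CPM and 1883, 1864 and 1824 CPM. Transferrin (TF) had 7268, 7549 and 8317 CPM, and its level per kb is not comparable because the annotated union of its exons, at 20602 bases, is far longer than its coding transcript. MT2A, a metallothionein from a family of close copies, had 391, 514 and 352 CPM. Hepcidin (HAMP), the hormone that limits iron export, had 11.9, 12.3 and 7.86 CPM. HFE2, which encodes the hepcidin regulator hemojuvelin, and MT1H were at the floor, with 0, 3 and 3 counts and 0, 0 and 2 counts.

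In 20 pairs of isozymes or related genes the levels per kb of exon were set against each other. The gene named first is in most pairs the form of adult liver. Among the exceptions are LDHB, since LDHA is the liver form, and the receptor chains ASGR1 and ASGR2, both of liver. The gene named first was higher in every well in 4 pairs, its partner in every well in 15, and the order varied between wells in 1. ALB and AFP are a pair that sets adult against fetal liver, as are CYP3A4 and CYP3A7, which are given below and stood on the fetal side. ALB exceeded AFP, with a log2 ratio of 0.81 in well a, 0.82 in b and 0.81 in c. The ratio thus varied little although both genes were higher in well a. Carnitine palmitoyltransferase CPT1A stood above the muscle form CPT1B by 6.62 ± 0.68 and FABP1 above FABP5 by 2.96 ± 0.23, both on the log2 scale. CPT1B had 11, 20 and 9 counts and shares 80.1% of its exon bases with another annotated gene, so the size of its ratio is uncertain. GSTA1, which had 9.36, 4.60 and 5.95 CPM, exceeded GSTP1, which had 2 counts over the 3 wells, 534-fold, with a 95% counting interval of 148 to 4417. GSTA1 and GSTA2 are close copies.

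In most of the chosen pairs of sugar enzymes and carriers the partner was the higher one. For pyruvate kinase the log2 ratio of PKLR to PKM was -7.13 ± 0.01. For the glucose carriers that of SLC2A2 to SLC2A1 was -5.14 ± 0.12. LDHA was at least 19457-fold higher per kb than LDHB, which had 0 counts, against a floor of 3 counts per library. GYS2 had 3 counts over the wells and GYS1 had 55.5, 58.3 and 58.3 CPM, a ratio of GYS1 to GYS2 of 2925 with an interval of 1001 to 14187. In glucose release, the log2 ratio was -5.85 ± 0.26 for PCK1 to PCK2 and -5.44 ± 0.09 for G6PC to G6PC3. The gene named first was thus the lower one in each of these pairs, which for lactate dehydrogenase is not the liver form. FBP1 and FBP2, both low, were the pair whose order varied between wells. Phosphofructokinase was not among the pairs. Its liver form PFKL had 72.8 CPM per kb, against 0.801 for PFKM and 1.64 for PFKP.

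Other pairs lay closer together. The log2 ratio was -0.10 ± 0.04 for the methionine adenosyltransferases MAT1A to MAT2A, and -0.15 ± 0.06 for the glycogen phosphorylases PYGL to PYGB. It was -0.24 ± 0.01 for the asialoglycoprotein receptor chains ASGR1 to ASGR2. The order of PYGL and PYGB and of ASGR1 and ASGR2 turns when the median transcript length replaces the union of exons, with 0.14 and 0.37. MAT2A was the higher of its pair in every well. With that length the ratio also moves by more than 1.5-fold for MAT1A to MAT2A, to -0.76, and for SLC2A2, G6PC and CPT1A over their partners, to -6.06, -3.94 and 7.64. In fat, amino acid and iron metabolism the log2 ratio was -3.56 for ARG1 to ARG2 and -2.94 for ACACB to ACACA. It was -2.60 for the transferrin receptors TFR2 to TFRC, and -0.49 for the carbamoyl phosphate synthases CPS1 to CAD. For CYP3A4 to CYP3A7, both low, it was -2.71 ± 0.26. CYP3A7 shares 66.8% of its exon bases with another annotated gene, so this ratio is uncertain. IGF1 had 6 counts over the wells, and IGF2 exceeded it 17853-fold per kb with an interval of 8202 to 48648.

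**Figure D3:**
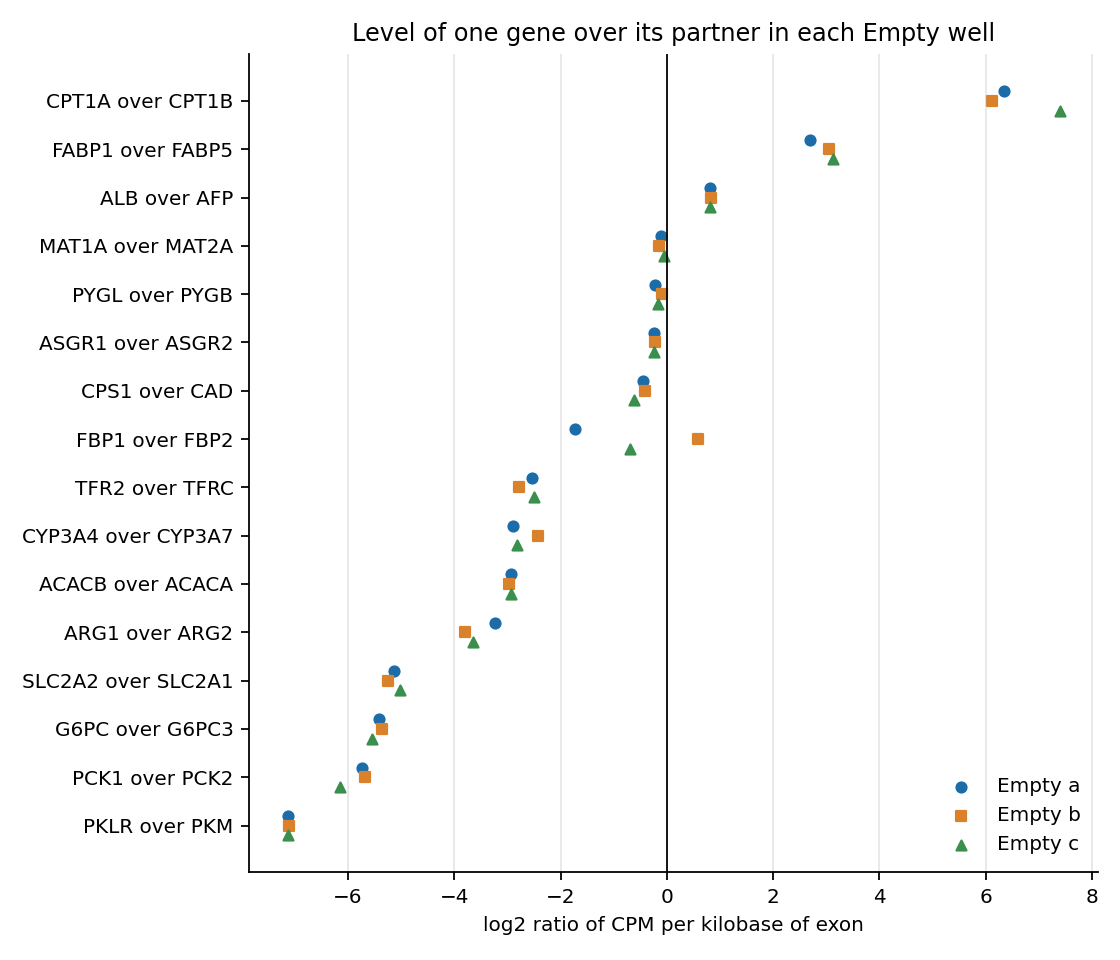
Log2 ratio of CPM per kb of exon of the gene named first over its partner, for the pairs with counts enough for a ratio in each Empty well, with a point per well. CPT1A over CPT1B lies furthest to the positive side and PKLR over PKM furthest to the negative side.

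Signalling genes were expressed in 171 of 254 cases. In the insulin and IGF list 21 of 28 were expressed. IGFBP1, a secreted binding protein that insulin represses in liver, had 2428, 3246 and 3349 CPM and was lowest in well a. The insulin receptor INSR had 75.2, 80.5 and 77.9 CPM and IRS1, its docking protein, 87.2, 88.4 and 84.5 CPM. IGF2 and its clearing receptor IGF2R were expressed, with 75.5 and 39.5 CPM per kb. IRS2 was low with 0.117, 0.155 and 0.0612 CPM. The growth hormone receptor GHR was at the floor with 1, 0 and 3 counts, as was IRS4. Among growth factors and their receptors 22 of 36 were expressed. FGFR4, VEGFA, MST1, FGFR3 and ERBB3 were the highest per kb, from 39.4 CPM per kb for ERBB3 to 136 for FGFR4. EGFR had 13.5, 14.1 and 13.7 CPM, and MET, the receptor of HGF, had 155, 160.4 and 155 CPM. HGF itself, a product of stellate cells, was at the floor with 0, 0 and 0 counts, as were the endothelial receptors KDR and FLT1, the receptors KIT and ERBB4, and the ligand BTC.

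The WNT list had 28 of 40 genes expressed, and 4 of its 5 highest members per kb, the co-receptor LRP5 apart, are known targets or secreted inhibitors of the pathway. NOTUM, a secreted enzyme that inactivates WNT proteins, had 384, 387 and 368 CPM. The target SP5 had 261, 259.7 and 244 CPM, and DKK1, a receptor antagonist, had 172, 212 and 158 CPM. AXIN2, a feedback inhibitor, had 150.0, 138 and 130.3 CPM, and LGR5 had 114, 109 and 103 CPM. Beta-catenin (CTNNB1) had 385, 398 and 388 CPM. Against these levels the ligands WNT2, WNT3A and WNT5A, and the secreted modulators RSPO3, SFRP1 and WIF1, were at the floor. The ligand WNT3, however, was expressed with 19.29, 18.15 and 19.97 CPM, and WNT11 was low with 0.450, 0.622 and 0.199 CPM. GLUL, a WNT target of hepatocytes around the central vein, had 501, 529.6 and 535 CPM. CYP2E1 and CYP1A2, which lie in the same zone of adult liver, were low and at the floor as given above.

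Of the cytokine and NF-kB list 29 of 42 genes were expressed. The chemokine CCL20 was far above the others with 366, 389 and 356 CPM, or 439.9 CPM per kb, against 42.95 for the next, the inhibitor NFKBIA. The IL-6 signal chain was present at its receptor IL6R with 40.4, 45.2 and 42.9 CPM, its co-receptor IL6ST with 307, 304 and 320.2 CPM and STAT3 with 172, 184 and 184 CPM. The ligands IL6 and TNF, the chemokines CXCL1, CXCL2 and CCL2, and the flagellin receptor TLR5 were at the floor. The endotoxin receptor TLR4 was low with 0.117, 0.190 and 0.153 CPM. The TGF-beta and BMP list had 28 of 33 genes expressed. The BMP target ID1 had 340.5, 372 and 319 CPM. The receptor TGFBR2 had 388, 396 and 378 CPM. TGFB2, BMPR1B and INHBA were at the floor. In the Notch, Hippo and Hedgehog list 25 of 37 were expressed, led by CCN2, JAG1, ANKRD1 and CCN1 with 266, 96.2, 68.5 and 51.2 CPM per kb. CCN2, ANKRD1 and CCN1 are targets of the Hippo effector YAP1, which had 219, 229 and 218 CPM. The Hedgehog effectors GLI2 and GLI3 were at the floor.

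G protein-coupled receptors and hormone signalling had the lowest share of the signalling lists, with 18 of 38 genes expressed and 13 at the floor. The 5 highest per kb were the G protein subunits GNAS and GNA11, the kinase subunit PRKACA, and the receptors GPRC5C and F2RL1. GPRC5C had 243, 259 and 254 CPM and F2RL1, a receptor cut by proteases, 108, 133 and 123 CPM. The adrenergic receptors ADRA1A, ADRA1B and ADRB1, the vasopressin receptor AVPR1A and the incretin receptor GLP1R were at the floor, with FFAR1, FFAR4, ADORA1, CNR1, P2RY1, LPAR1 and PTGER2. Subunits that pass on signals were thus among the highest members, while many receptors had few or no counts.

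Cell cycle genes were expressed in 49 of 50 cases, with MYCN at 0 counts. MYC, a growth regulator, had 213, 213 and 197 CPM, and cyclin D1 (CCND1) had 283, 305 and 274 CPM. TOP2A, a topoisomerase of dividing cells, had 267, 229.8 and 201 CPM. The p53 target CDKN1A, an inhibitor of the cycle, had 125, 126 and 118 CPM.

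The labelled cell type was checked against its markers. Of 20 hepatocyte markers 17 were expressed, and the others were CYP2E1, CYP3A4 and TDO2. Of 14 cholangiocyte markers 10 were expressed. KRT19 had 318 CPM per kb, osteopontin SPP1 201, EPCAM 80.4 and SOX9 78.0, whereas the chloride channel CFTR and water channel AQP1 were at the floor and KRT7 was low with 0.0979, 0.121 and 0.122 CPM. Stellate cell markers were expressed in 4 of 13 cases. ACTA2 had 22.1, 20.6 and 22.3 CPM and PDGFRB 24.9, 24.5 and 24.0 CPM, but vimentin (VIM) had 0, 0 and 1 counts, and LRAT, COL1A2, DCN, DES and LUM were at the floor. Endothelial markers were expressed in 2 of 10 cases, ENG with 2.90, 4.10 and 3.12 CPM and PECAM1 with 5.17, 5.01 and 5.12 CPM. Of 13 immune markers 3 were expressed. Lysozyme (LYZ) had 1905, 1940 and 1772 CPM, CD68, a lysosomal protein, 42.4, 52.5 and 45.0 CPM and CD74 53.4, 49.1 and 53.4 CPM, while PTPRC, the marker of all leukocytes, had 0 counts. The wells are of 1 established line, so these markers describe its transcripts and not the presence of other cell types. In bulk RNA, a transcript in few cells and a low level in all cells cannot be told apart.

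In the lists together, 900 different genes were looked up: 678 were expressed, 117 were low and 105 were at the floor, of which 58 had 0 counts in all wells. Of those at the floor 90 share no exon base with another annotated gene and 5 share more than 50% of theirs. Since it is not given how reads of overlapping genes or of several places were counted, a floor value of the remaining genes or of close copies may be low for that reason, which was not tested. Among the genes nearest the threshold on its upper side were CCND2 with 1.18, 1.07 and 1.39 CPM and SOCS2 with 1.12, 1.23 and 1.39 CPM. Those nearest below it were DLL4 with 0.979, 1.76 and 1.88 CPM, IGFALS with 1.21, 0.985 and 1.255 CPM and DKK4 with 1.47, 0.899 and 0.872 CPM, each of which reached 1 CPM in at least 1 well.

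The wells resembled each other closely. Pearson's r of log2 CPM over 12214 genes was 0.99713 for a and b, 0.99697 for a and c and 0.99733 for b and c. This is across genes, which are not independent replicates. The variance of counts between wells was still 8.89 to 9.78 times that of sampling alone, as mean chi-square per degree of freedom. Genes with many counts weigh most in that mean. Over the 3 wells the median per gene was 1.88 at 1 to 10 CPM and 3.19 at 10 to 100 CPM. It was 10.8 at 100 to 1000 CPM and 134 for the 100 genes at 1000 CPM or more. Each well was kept as a separate replicate. Among 9005 genes with at least 10 CPM in every well the median coefficient of variation (CV, SD over mean) was 3.837% and the 95th percentile 10.75%. Of these genes 24 differed more than 1.5-fold between their highest and lowest well and 0 more than 2-fold. The CV fell with the level and then levelled off. Its median was 9.19% at 1 to 10 CPM, 4.12% at 10 to 100 CPM and 3.24% at 100 to 1000 CPM. Counting alone gives medians of 6.48%, 2.26% and 1.01% at those levels. edgeR's common biological coefficient of variation, the spread beyond counting, was 0.0545.

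**Figure D4:**
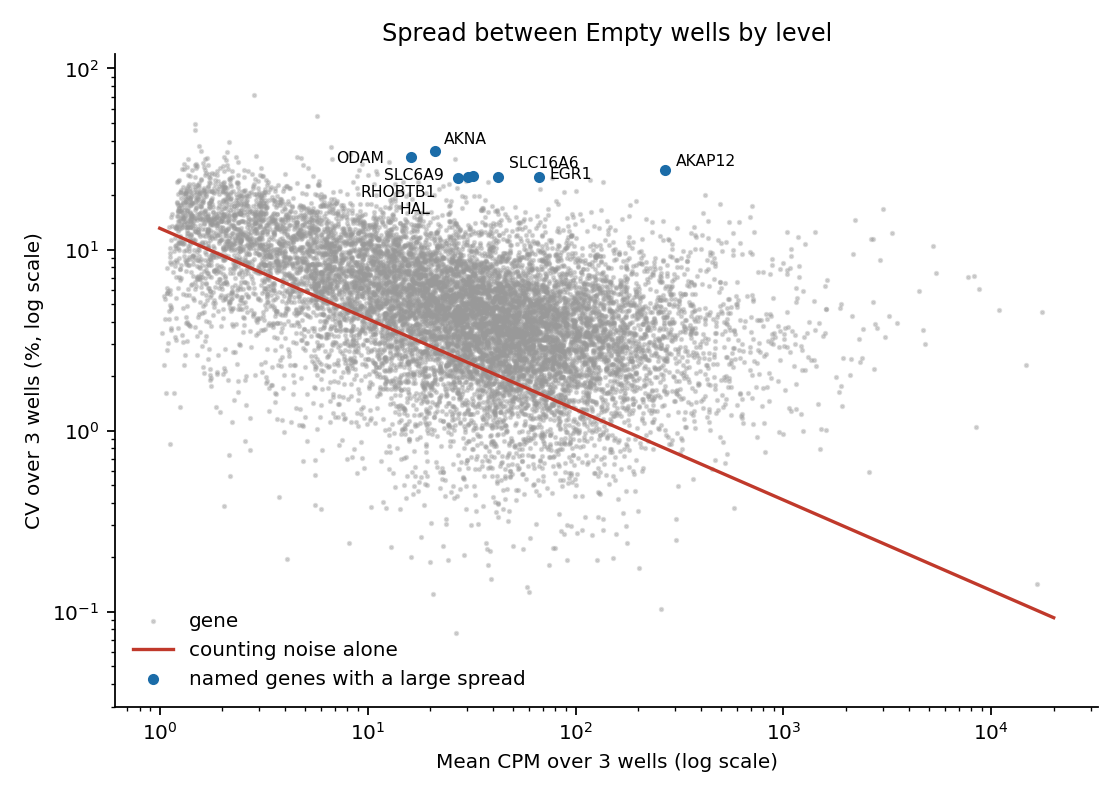
Coefficient of variation over the 3 Empty wells in percent against mean level in CPM, both on log axes, with a point per expressed gene, a line for counting noise alone, and 8 of the 10 genes with the largest CV among those at 10 CPM or more named. AKNA is the highest of the named genes with a CV of 35.2%, and the points lie further above the line at high levels than at low ones.

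The genes with the largest CV were not all highest in the same well. AKNA, a transcription factor, had 19.3, 14.8 and 29.4 CPM and was highest in well c. AKAP12, a scaffold for protein kinase A, had 198, 346 and 264 CPM and was highest in well b. EGR1, an immediate early gene, had 78.2, 74.3 and 47.4 CPM and was lowest in well c. ODAM had 22.3, 13.9 and 12.5 CPM, the glycine carrier SLC6A9 34.2, 23.2 and 39.4 CPM, SLC16A6 32.2, 53.5 and 41.5 CPM, RHOBTB1 38.0, 29.9 and 22.8 CPM and HAL, which breaks down histidine, 21.0, 26.1 and 34.3 CPM. The ribosomal RNA genes RNA45S5 and RNA28S5 were also among the 10, with 18.9, 35.2 and 24.9 CPM and 99.2, 70.2 and 62.8 CPM; they are repeated in the genome. Of the 24 genes beyond 1.5-fold, 9 were highest in a, 9 in b and 6 in c. The lowest well was less even, with 6 lowest in a, 6 in b and 12 in c. At the other end EEF1A1 had a CV of 0.143%.

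Some gene groups moved together between wells. For each list the median was taken of its expressed members' log2 CPM minus the mean over wells. The cell cycle list stood at 0.16 in well a, -0.01 in b and -0.13 in c, with 40 of its 49 expressed members highest in a, 8 in b and 1 in c. Over all 12214 expressed genes 4447 were highest in a, 3761 in b and 4006 in c. Of 85 expressed cytosolic ribosomal protein genes, a family added after the values were seen, 21 were highest in a, 6 in b and 58 in c. UHRF1, which maintains DNA methylation at replication, had 82.1, 67.1 and 53.0 CPM, and the replication helicase subunit MCM3 had 194, 162 and 146 CPM. The cholesterol synthesis list stood at -0.08, 0.01 and 0.07 in a, b and c, and the lipogenesis list at -0.09, 0.03 and 0.07. Plasma proteins stood at -0.02, -0.05 and 0.08. Well a thus had the most cell cycle and well c the most plasma protein transcripts, by amounts far smaller than the distances between genes. Well a also had the fewest counts and well c the most, and the part of depth in this was not tested.

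**Figure D5:**
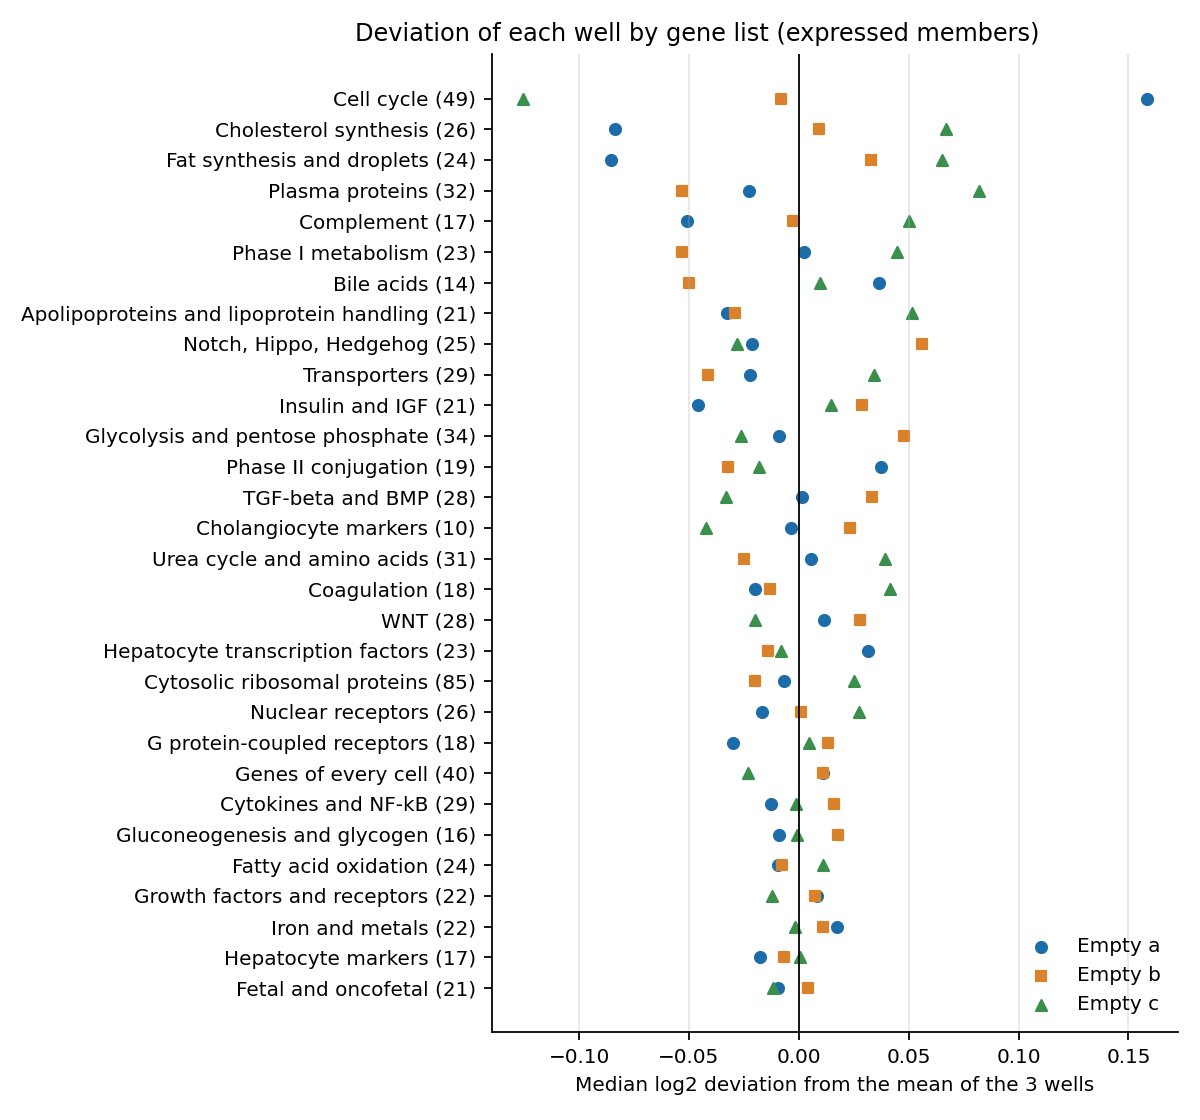
Median over the expressed members of each list of log2 CPM in a well minus the mean over the 3 Empty wells, with a point for each well, for lists with at least 10 expressed members. The cell cycle list has the widest spread, from -0.13 in well c to 0.16 in well a.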

How the data were processed

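RNA sequencing of 3 wells of the Empty HepG2 line was used. The deposited table holds whole-number counts for each symbol. The tools STAR and featureCounts and the genome hg38 are named in the submitters' processing notes. Not given in the sources used here are their versions, the annotation, the strand setting and the handling of reads that fit several genes. Per the labels' protocols, RNA was purified by column and a NEBNext Ultra II kit served for the libraries. All 12 count columns matched a sample title, and 9 were set aside.

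Counts were scaled by TMM over the 3 wells in edgeR 4.0.16 (R 4.3.3) and expressed as CPM. Symbols were matched to RefSeq of GRCh38.p14, 23758 by symbol and 1562 by synonym, leaving 1165 unmatched. Exon lengths are unions of exons in GENCODE release 29, found for 24644 genes. These annotations may differ from the authors'. Because 1 group is described, no test between groups was made, and n = 3 wells measures only the spread within 1 line. Intervals are exact 95% counting intervals, and like the limit of 3 counts for a count of 0 they cover counting error only, since reads are not independent molecules. Depth was 50864744 to 65428204 counts per well.

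The genes described, the 32 lists and the 20 pairs were chosen with earlier results of these data known. Named were the 20 highest genes by CPM and by CPM per kb, the 5 highest per kb and up to 6 at the floor or lowest of each list, both genes of each pair, the marker lists, and the 10 largest CVs. Named outside this rule, after their values were seen, were ADH1A, ADORA1, AFM, APOC4-APOC2, AVPR1A, AXIN2, CNR1, CTNNB1, CYP7A1, DKK4, DLL4, EGFR, ESR2, FFAR1, FFAR4, FMO1, GLP1R, GSTA2, HAMP, IGFALS, IL6R, INSIG2, INSR, IRS1, KLB, LGR5, LINC00657, MET, PFKL, PFKM, PFKP, SALL4, SOCS2, TLR4, TOP2A, UGT1A3, UHRF1, VDR, WNT11 and WNT3. The dispersion estimate was tested on simulated counts of 12214 genes and returned 0.0498 for a simulated biological coefficient of variation of 0.05. Some genes that the rule names, and pairs that hold them, are not reported here. Alternatives were library totals, DESeq2 1.42.0 size factors, other thresholds, the median transcript length, and leaving out each well.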

Additional observations from a re-analysis of the deposited data

How the results depend on the processing

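No paired analysis was possible because 1 group was described and its wells have no counterpart in another. The number of expressed genes was 12214, against 12216 with library totals and 12214 with DESeq2 1.42.0 size factors. It was 13008 and 11437 with thresholds of 0.5 and 2 CPM, 10933 with 1 CPM per kb of exon, and 16884 with at least 1 count in every well. Leaving out a well gave 12248 to 12305. Of 1910 alternative means of the 382 genes chosen by the rule, 1909 lay within 1 SD of the mean given. With so few wells, leaving out 1 of them always moves a mean by less than 1 SD at unchanged scaling. The TMM factors were 1.004, 0.9969 and 0.999 in wells a, b and c, so library totals hardly change a mean. The count therefore cannot show how robust the means are.

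Ratios within pairs moved beyond the spread between wells where the median transcript length replaced the union of exons. The log2 ratio turned to 0.14 for PYGL over PYGB and to 0.37 for ASGR1 over ASGR2. It became 1.09 for ALB over AFP, 7.64 for CPT1A over CPT1B, -6.06 for SLC2A2 over SLC2A1 and -7.46 for PKLR over PKM. It became -0.76 for MAT1A over MAT2A, -6.40 for PCK1 over PCK2 and -3.94 for G6PC over G6PC3. It became -3.12 for ACACB over ACACA and -0.28 for CPS1 over CAD. The length assigned to each gene is the whole of the difference, so a ratio between genes holds only for the exons assumed. The common biological coefficient of variation was 0.0545, and 0.0523 to 0.0576 when a well was left out. Levels below 1 CPM rest on few counts, and 1 line cannot show how far another stock of HepG2 would differ.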
